A study of Mus musculus with 6 samples.

Results

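The mRNAs of 36 enzymes that make, recycle and interconvert nucleotides were followed in mouse cells carrying a ribosomal mutation. The 36 genes were picked by name, as the enzymes of purine and pyrimidine synthesis, of salvage and of deoxynucleotide supply, out of 41255 genes listed, and all 36 were detected and tested. The libraries came from Ba/F3, an interleukin-3-dependent mouse lymphoid line. Retroviral transduction had given the cells a human RPL10 cDNA, which encodes a protein of the large ribosomal subunit, and a short hairpin RNA had knocked down mouse Rpl10 in every culture. The WT group (clones 28, 29 and 36) expressed wild-type RPL10, and the R98S group (clones 11, 13 and 35) expressed the R98S form found in T-cell acute lymphoblastic leukemia. Each culture was grown out of 1 cell and received cycloheximide at 100 µg/ml for 5 min before lysis, and 1 library of polyadenylated RNA was sequenced per culture. Because the unit of replication is the clone, p-values set the difference between the groups against the variation between clones.

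Purine nucleotides are built on a ribose phosphate taken from phosphoribosyl pyrophosphate (PRPP). A chain of steps, several of them on the same multifunctional protein, lead to inosine monophosphate (IMP), from which AMP and GMP branch off. Pyrimidines are assembled as a free ring first, which is then joined to PRPP and converted to UMP and CTP. Salvage enzymes return bases and nucleosides to the pool, and ribonucleotide reductase with its partner enzymes turns ribonucleotides into the precursors of DNA. Glycine and formyl groups carried by folate enter the purine ring, which ties this pathway to serine metabolism, and proliferating lymphoid cells use it heavily.

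The values are normalized read counts, that is, the reads of a gene scaled by the size factor of its library. Between 21786776 and 24204991 reads were assigned to genes per library. A difference was called when the adjusted p of limma was under 0.1, and a log2 fold change is the R98S mean minus the WT mean of log2(normalized count + 1). Of the expected surface and lineage genes of the line, those for the interleukin-3 receptor were all expressed (3 of 3). Their summed level was 87943 to 103977 normalized counts in WT and 130712 to 154304 in R98S clones. Csf2rb and Csf2rb2 were called higher (limma adjusted p = 0.0509 and 0.0178), whereas Il3ra was not called and had a negative log2 fold change (-0.18). Only 3 of 16 B-precursor genes (Cd79a, Cd79b and Ptprc) passed the expression filter, while Pax5 and Dntt had at most 2 reads in any library, so these defining B-lineage markers were at or near 0. The B-precursor genes summed to 10166 to 15433 in WT and 5273 to 7311 in R98S clones. Ptprc, which encodes CD45, was called lower (log2 fold change -1.33, limma adjusted p = 0.00894) and Cd79b higher (1.22, limma adjusted p = 0.0617). Cd79a was not called (log2 fold change 0.20), so Ptprc alone of the 3 tested genes had a negative log2 fold change. T-cell markers summed to 52.2 to 106 normalized counts in WT and 153 to 179 in R98S clones over 7 genes. Cd3d and Lck were called higher among them, whereas Cd3e, Cd4 and Trbc2 had at most 3 reads in any library. The 11 myeloid and mast-cell genes overlapped in sum (2399.7 to 3627 in WT and 1844 to 3387 in R98S clones), with Prtn3, a granule protease, called lower (-2.83, limma adjusted p = 0.00805) and Mpo, Elane and Kit under the filter. The part of these shifts in the results below was not tested. In bulk RNA, fewer cells of a kind and less RNA per cell cannot be told apart.

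Among the 36 genes, R98S cells had 11 higher and 2 lower than WT cells. The 11 were Ada, Nme1, Atic, Ctps, Adk, Cad, Dhodh, Aprt, Umps, Cmpk1 and Gart, and the 2 were Adssl1 and Impdh1. The 13 called genes make 36.1% of the list, where 23.9% of the 11550 genes tested were called. The 11 higher genes compare with 10.7% of all genes called higher, and the 2 lower genes with 13.1% called lower. The fitted log2 fold change was positive for 25 of the 36 and negative for 11, with a median of 0.24, compared with a median of -0.01 over all genes tested. In 22 of the 36 genes the WT and R98S clones did not overlap, while 37.3% of all genes had no overlap between the groups. R98S lay above WT in 18 of the 22 and below it in 4, compared with 2092 and 2215 of the 11550 genes tested. The counts depended on single clones, since 6 genes were called without WT clone 28, 6 without R98S clone 11, 8 without WT clone 29 and 15 without R98S clone 13. Over all genes the calls moved with the same clones, from 2755 to 1327, 1578, 1464 and 3219 in that order. At an adjusted p under 0.05, 9 of the 13 remained past the threshold, 8 higher and 1 lower.

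**Figure D1:**
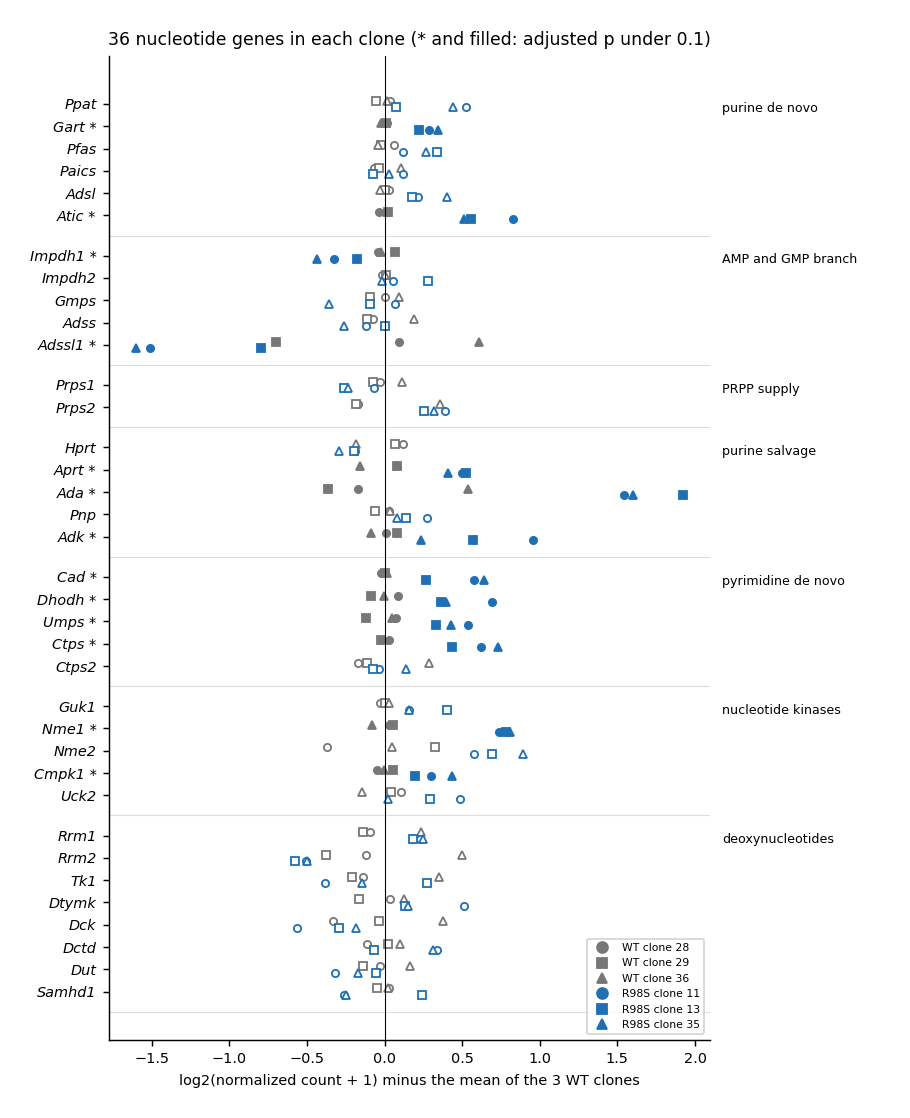
The 36 genes, grouped by role, are plotted in each clone as log2(normalized count + 1) minus the mean of the 3 WT clones. WT clones are grey and R98S clones blue, marker shapes tell clones apart, and filled symbols with an asterisk are the 13 genes past the threshold, 11 of them to the right and 2 to the left of the WT mean.

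The genes span a wide range of expression. The length used here is that of all annotated exons of a gene merged (1289 bases in Hprt, 11012 in Rrm1), not of the expressed transcript. The order below therefore depends on the annotation. Per kilobase of such exon, Hprt, which salvages hypoxanthine and guanine, ranked first of the 36. Its mean was 4740 normalized counts per kilobase over the 6 clones. Paics (2834), Rrm2 (2812), Aprt (2182) and Impdh2 (1467) followed. Dhodh (129) and Nme2 (15.7) were at the bottom of this order, where the place of Nme2 is uncertain because 48.9% of its exonic length is shared with the readthrough gene Gm20390. Replicates were close: the coefficient of variation between clones had a median of 6.61% in WT and 9.70% in R98S cells over the 36 genes, compared with 11.0% and 14.03% over all genes tested.

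The sequence around each transcription start was taken from RefSeq (build GRCm38.p6, from 250 bases before to 50 bases after the start), where 34 of the 36 genes matched. Windows for Pfas and Dhodh were not used here. The E-box CACGTG, the core motif bound by MYC and MAX, a palindrome that reads the same on both strands, was present near 5 of the 34 genes. They are shown because Atic and Nme1 are among the most clearly changed genes and Paics and Impdh2 among the least changed. Each line gives 30 bases 5′ to 3′ along the gene's strand, with the E-box in capitals.

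Atic, chr1:71557137-71557166, plus strand: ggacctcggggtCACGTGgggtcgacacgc
Nme1, chr11:93968273-93968302, minus strand: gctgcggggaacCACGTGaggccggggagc
Dtymk, chr1:93802065-93802094, minus strand: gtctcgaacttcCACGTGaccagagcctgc
Impdh2, chr9:108560314-108560343, plus strand: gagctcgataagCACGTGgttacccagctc
Paics, chr5:76951087-76951116, plus strand: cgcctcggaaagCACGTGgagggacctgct

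Counted from the RefSeq start, the first base of the motif lies 7 bases before it in Atic, 18 in Nme1, 110 in Impdh2, 148 in Dtymk and 203 in Paics. GENCODE, whose starts differ, places the printed stretches of Impdh2 and Nme1 within an exon of the gene itself (for Nme1 also of Gm20390) and 17 bases of that of Atic, while the Paics stretch falls within an exon of Ppat on the opposite strand. A window at a further RefSeq start of Nme1 (chromosome 11, 93967976 to 93968275) holds another CACGTG, which is not printed. The 5 genes are 14.7% of those matched, where 8.09% of 27025 genes with a window hold the motif. Of the 5, 2 were called higher (Atic and Nme1), and of the 29 without it 8 were called higher and 2 lower, with median log2 fold changes of 0.26 and 0.22. The E2F motif, searched as TTTCGCGC or TTTGGCGC on both strands, was near none of the 34 genes (44 windows) and near 0.929% of genes. The CCAAT box, searched on both strands, was near 15 of the 34 genes (44.1%) and near 41.1% of genes.

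The sequences before the starts of the 2 higher genes with the largest change in salvage and in IMP synthesis, Ada and Atic, are given over 250 bases, with the motifs in capitals.

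Ada, chr2:163750240-163750489, minus strand: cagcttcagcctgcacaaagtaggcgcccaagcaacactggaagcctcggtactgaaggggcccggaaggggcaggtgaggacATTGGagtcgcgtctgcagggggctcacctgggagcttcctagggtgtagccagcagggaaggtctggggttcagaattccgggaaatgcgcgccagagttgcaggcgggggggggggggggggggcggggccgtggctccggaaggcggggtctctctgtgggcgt
Atic, chr1:71556906-71557155, plus strand: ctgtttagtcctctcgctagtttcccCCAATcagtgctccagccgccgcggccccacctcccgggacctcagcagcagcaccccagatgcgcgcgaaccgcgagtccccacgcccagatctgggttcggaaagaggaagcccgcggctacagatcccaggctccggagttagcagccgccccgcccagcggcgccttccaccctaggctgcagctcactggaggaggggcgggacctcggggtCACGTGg

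In Ada the capitals mark ATTGG, the CCAAT box read from the other strand, whose first base is 167 bases before the start, and the window holds no CACGTG. In Atic the CCAAT box begins 224 bases before the start and the E-box 7 bases before it. These matches describe letters in the windows, not bound sites.

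The 6 enzymes that carry PRPP to IMP all had a positive log2 fold change, with a median of 0.27. Of the 6, 2 were called higher, where 10.7% of all genes were. The largest change was in Atic, the bifunctional enzyme that adds the last formyl group and closes the purine ring (chromosome 1, 71557150 to 71579631, GRCm38). In normalized counts, always in the order of WT clones 28, 29, 36 and R98S clones 11, 13, 35, Atic read 4266, 4432 and 4429 in WT and 7768, 6437 and 6247 in R98S clones. All R98S clones lay far above the WT clones, which differed little. The means were 4376 ± 95.0 and 6817 ± 829 (SD, n = 3), a 1.56-fold difference (log2 fold change 0.63, SE 0.11, limma adjusted p = 0.0113). The call held in all 16 alternative analyses.

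Gart, a trifunctional enzyme that uses glycine and the first formyl group (chromosome 16, 91621186 to 91646952), read 2724, 2702 and 2646 in WT and 3284, 3134 and 3418 in R98S clones. The groups did not overlap, and the 1.22-fold difference passed the threshold (log2 fold change 0.28, SE 0.09, limma adjusted p = 0.0742). This call was lost when any clone except R98S clone 13 was left out, with limma adjusted p between 0.130 (without WT clone 36) and 0.214 (without WT clone 28). It was also lost on all 6 clones with no expression filter (0.184) and with no trend (0.119), so that 9 of 16 alternatives kept it.

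Ppat, the amidotransferase of the committed step (chromosome 5, 76913249 to 76951578), read 2856, 2684 and 2820.1 in WT clones. Its R98S values were 4003, 2933 and 3784. Clone 13 was thus close to WT and the other R98S clones well above, and the difference missed the threshold (log2 fold change 0.35, SE 0.13, limma adjusted p = 0.115). Without R98S clone 13 it passed (log2 fold change 0.48, limma adjusted p = 0.0200), and it also passed in edgeR and DESeq2 on the recovered reads (adjusted p = 0.0990 and 0.0624). Paics, whose protein carries out a pair of later steps, starts 271 bases from Ppat and is transcribed in the opposite direction. It read 8411, 8575 and 9461 in WT and 9575, 8374 and 8988 in R98S clones, so the groups overlapped (log2 fold change 0.026, SE 0.10, limma adjusted p = 0.887). The neighbouring genes share 272 exonic bases on opposite strands, and whether the counting used strand is not given in the sources used here. Pfas and Adsl, the remaining enzymes of the chain, had groups without overlap but missed the threshold (log2 fold changes 0.24 and 0.26, limma adjusted p = 0.148 and 0.124). Pfas passed with equal upper quartiles (0.0922) and with the regional shift removed (0.0918), and Adsl with equal upper quartiles (0.0921), in DESeq2 (0.0841) and without R98S clone 13 (0.0854).

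Neither of the genes that supply PRPP was called by the main limma test, where 23.9% of all genes were. In that test 0 of 2 had an unadjusted p under 0.05, and edgeR and DESeq2 called neither gene. Prps1, a PRPP synthetase gene on the X chromosome, read 2607, 2525 and 2873 in WT and 2545, 2221 and 2264 in R98S clones (log2 fold change -0.19, limma adjusted p = 0.266). Prps2, its paralogue, read 2498, 2468 and 3590 in WT clones and 3679, 3340.5 and 3503 in R98S clones. WT clone 36 stood at the R98S level and away from the other WT clones (log2 fold change 0.32, SE 0.15, limma adjusted p = 0.197). Without it the difference was 0.50 on the log2 scale (limma adjusted p = 0.0292). Prps2 also passed with the regional shift removed (log2 fold change 0.46, limma adjusted p = 0.0373).

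Below IMP, 4 of the 5 genes of the AMP and GMP branches had a negative log2 fold change, with a median of -0.13. Of the 5, 2 were called lower, where 13.1% of all genes were. Adssl1, the muscle-type adenylosuccinate synthase of the AMP branch (chromosome 12, 112620045 to 112641360), had the largest decrease of the 36. It read 2013, 1160 and 2870.2 in WT and 661, 1084 and 622 in R98S clones. The R98S clones were below every WT clone, although WT clone 29 and R98S clone 13 were close to each other. The R98S mean was 0.392 times the WT mean (2014 ± 855 in WT and 789 ± 256 in R98S, SD, n = 3; log2 fold change -1.30, SE 0.33, limma adjusted p = 0.0367). The call was lost without WT clone 28 (limma adjusted p = 0.104), R98S clone 11 (0.122) or R98S clone 35 (0.113). Adss, the synthase present in most tissues, did not pass (log2 fold change -0.13, limma adjusted p = 0.513).

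Impdh1 encodes an IMP dehydrogenase, the controlled step toward GMP (chromosome 6, 29200434 to 29216364). Its values were 2062, 2223 and 2096 in WT and 1696, 1880.0 and 1569 in R98S clones, without overlap (log2 fold change -0.31, SE 0.11, limma adjusted p = 0.0882). The call was lost in 9 of 16 alternatives, among them every analysis without 1 clone except that without R98S clone 13, where the other 5 gave limma adjusted p between 0.131 (without WT clone 36) and 0.252 (without WT clone 29). Impdh2, the isozyme known to rise with proliferation, read 4298, 4371 and 4351 in WT and 4502, 5276 and 4296 in R98S clones, which overlapped (log2 fold change 0.11, limma adjusted p = 0.531). Gmps, the GMP synthase, also overlapped (log2 fold change -0.13, limma adjusted p = 0.531).

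Several steps are covered by isozyme pairs, and the share of one isozyme in its pair, per exonic base, is a description of their balance that removes what is common to both. Impdh1 made 31.4% ± 0.707 of its pair in WT and 25.5% ± 0.532 in R98S clones (SD, n = 3). Adssl1 made 49.97% ± 8.97 and 30.7% ± 4.92 of the pair with Adss. The share of Ctps2 was 29.5% ± 3.75 in WT and 21.7% ± 0.897 in R98S clones. All these shares were lower in every R98S clone than in any WT clone. Prps2 went the other way, from 35.2% ± 3.41 in WT to 43.5% ± 0.841 in R98S clones, also without overlap. Rrm2b, the small reductase subunit that p53 induces, overlapped at 1.90% ± 0.687 and 1.91% ± 0.251 of its pair with Rrm2. Rrm2b itself was called lower, at 605, 569.6 and 478 in WT and 391, 445 and 364 in R98S clones (log2 fold change -0.46, SE 0.15, limma adjusted p = 0.0785), a call held in 10 of 16 alternatives and lost without WT clone 28, WT clone 29, R98S clone 11 or R98S clone 35. No test was run on these shares. The size of a share depends on the annotated exon lengths, while the order of the clones within a pair does not.

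**Figure D2:**
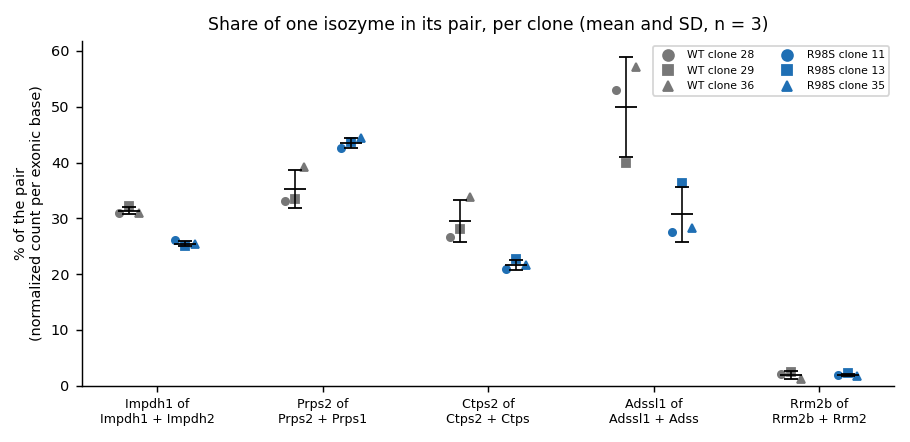
The y axis gives the share of the first-named isozyme in its pair, in percent of the summed normalized counts per exonic base, in each of the 3 WT (grey) and 3 R98S (blue) clones with the mean and SD. The shares of Impdh1, Ctps2 and Adssl1 are lower and that of Prps2 is higher in all R98S clones, and those of Rrm2b overlap.

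Purine salvage held the largest increase of the 36 genes. In all 5 of its genes the groups did not overlap, where 37.3% of all genes had no overlap. R98S lay above WT in 4 of the 5 and below it in Hprt. Of the 5, 3 were called higher and none lower (median log2 fold change 0.48), where 10.7% and 13.1% of all genes were. Ada, the adenosine deaminase whose loss causes severe combined immunodeficiency (chromosome 2, 163726584 to 163750239), read 158, 138 and 258 in WT clones. The R98S clones read 519, 675 and 541. Even the highest WT clone, 36, had fewer than the lowest R98S clone. The means of 184 ± 64.6 and 578 ± 84.2 (SD, n = 3) differed 3.13-fold (log2 fold change 1.69, SE 0.25, limma adjusted p = 0.00582). The call held in all 16 alternatives.

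Aprt, which salvages adenine (chromosome 8, 122574635 to 122576909), read 3103, 3105 and 2638 in WT and 4147, 4238 and 3910 in R98S clones. The groups were well separated (1.39-fold, log2 fold change 0.48, SE 0.11, limma adjusted p = 0.0237), with the call held in all 16 alternatives. Adk, the adenosine kinase (chromosome 14, 21052574 to 21448569), rose as well, but its R98S clones were spread out. It read 1503, 1580 and 1403 in WT clones and 2902, 2216 and 1754 in R98S clones (log2 fold change 0.59, SE 0.18, limma adjusted p = 0.06004). Clone 11 was the highest, and without it the log2 fold change was 0.40 (limma adjusted p = 0.136). The call of Adk was also lost without WT clone 28 (limma adjusted p = 0.148), 29 (0.118) or 36 (0.125), and on all 6 clones with no trend (0.106).

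Hprt, on the X chromosome, read 7126, 6884 and 5796 in WT and 5756, 5741 and 5353 in R98S clones. WT clone 36 lay just above R98S clone 11, and the decrease missed the threshold (log2 fold change -0.23, SE 0.11, limma adjusted p = 0.199), while without WT clone 36 it passed (-0.32, limma adjusted p = 0.0856). Pnp, the purine nucleoside phosphorylase, did not pass (log2 fold change 0.16, limma adjusted p = 0.336).

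De novo pyrimidine synthesis was the group with the largest share of called genes: 4 of 5 were higher (median log2 fold change 0.48), where 10.7% of all genes were. Cad, the trifunctional protein of the first steps (chromosome 5, 31054780 to 31078479), read 4861, 4950 and 4999 in WT and 7344, 5942 and 7699 in R98S clones. The WT clones were nearly alike and R98S clone 13 was the nearest to them (1.42-fold, log2 fold change 0.49, SE 0.12, limma adjusted p = 0.0299). Dhodh, the mitochondrial dihydroorotate dehydrogenase (chromosome 8, 109591343 to 109608673), read 719.9, 637 and 676 in WT and 1095, 869.6 and 890.0 in R98S clones (1.40-fold, log2 fold change 0.48, SE 0.13, limma adjusted p = 0.0468). Umps, which attaches the ring to PRPP and makes UMP (chromosome 16, 33954782 to 33967038), read 2383, 2085 and 2339.8 in WT and 3282, 2844 and 3046 in R98S clones (1.35-fold, log2 fold change 0.43, SE 0.11, limma adjusted p = 0.0333). In all of them every R98S clone was above every WT clone. Leaving out 1 clone ended the call of Cad without WT clone 28 (limma adjusted p = 0.112), of Dhodh without WT clone 28 (0.116), WT clone 29 (0.151) or R98S clone 11 (0.129), and of Umps without WT clone 29 (0.126) or R98S clone 11 (0.103).

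CTP synthase, which aminates UTP, is encoded by Ctps and Ctps2. Ctps, the form needed for lymphocyte proliferation (chromosome 4, 120539868 to 120570276), read 2296, 2221 and 2253 in WT and 3475, 3055 and 3745 in R98S clones. The groups were far apart (1.52-fold, log2 fold change 0.60, SE 0.11, limma adjusted p = 0.0122). The call held in all 16 alternatives, but with the median shift of the 30 nearest genes removed the log2 fold change was 0.28 (limma adjusted p = 0.0482). Ctps2 read 1187, 1236 and 1633 in WT and 1302, 1272 and 1470.1 in R98S clones, with overlap (log2 fold change 0.0078, SE 0.15, limma adjusted p = 0.978).

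The kinases that raise monophosphates and nucleosides to higher phosphates all had a positive log2 fold change (5 of 5, median 0.31). Of the 5, 2 were called higher, where 10.7% of all genes were. Nme1, a nucleoside diphosphate kinase (chromosome 11, 93956979 to 93968521), had the smallest p of the 36 genes. It read 1936, 1971 and 1792 in WT and 3159.9, 3259.9 and 3328 in R98S clones. Both groups were tight and the gap between them wide (1899.9 ± 94.7 and 3249 ± 84.4, SD, n = 3; 1.71-fold, log2 fold change 0.77, SE 0.10, limma adjusted p = 0.00297). All 16 alternatives kept the call.

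Nme2, the neighbouring paralogue on the same strand, was listed at only 10.2, 17.2 and 14.01 normalized counts in WT and 20.6, 22.5 and 25.9 in R98S clones (log2 fold change 0.72, SE 0.35, limma adjusted p = 0.197). Its level is uncertain because a readthrough gene, Gm20390, shares 573 exonic bases with it, or 48.9% of its exonic length, and 418 bases with Nme1 (12.5%). Gm20390 itself was listed at 0 in all libraries. Cmpk1, the UMP and CMP kinase (chromosome 4, 114959336 to 114987241), read 3318, 3564 and 3434 in WT and 4221, 3928 and 4643 in R98S clones (log2 fold change 0.31, SE 0.10, limma adjusted p = 0.0793). That call was lost in 8 of 16 alternatives, including every analysis without 1 clone except R98S clone 13 (0.129 without WT clone 36 to 0.255 without WT clone 28), and after removing the median shift of the 30 nearest genes the sign turned (-0.12, limma adjusted p = 0.311). Guk1, the guanylate kinase, and Uck2, the uridine and cytidine kinase, did not pass (log2 fold changes 0.24 and 0.27, limma adjusted p = 0.196 and 0.226).

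**Figure D3:**
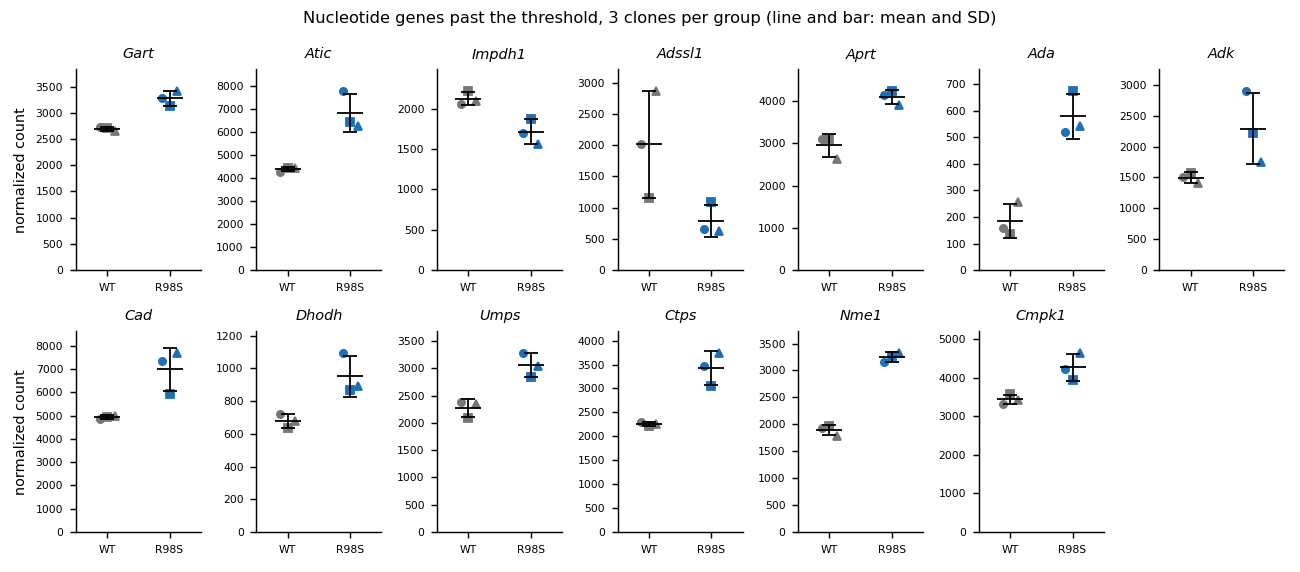
Each panel shows 1 of the 13 genes past the threshold, with its normalized count on a y axis that starts at 0, as 1 point per clone for WT (grey) and R98S (blue), and a line and bar for the mean and SD of 3 clones. Ada has the largest ratio, 3.13, and only Adssl1 and Impdh1 are lower in R98S cells.

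Of the 8 genes of deoxynucleotide supply none was called in the main limma test, where 23.9% of all genes were. In that test 1, Rrm2, had an unadjusted p under 0.05. On the recovered reads edgeR called none of them either, and DESeq2 called Rrm2. The median log2 fold change was -0.09. Rrm1, the large subunit of ribonucleotide reductase, read 9951, 9643 and 12524 in WT and 12469.9, 12072 and 12595 in R98S clones. WT clone 36 was at the R98S level, and the fitted difference was 0.22 (SE 0.12, limma adjusted p = 0.260), or 0.34 without that clone (limma adjusted p = 0.0728).

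Rrm2, the small subunit made in S phase, moved the other way. It read 8320.2, 6943 and 12741 in WT clones and 6341, 6038 and 6376 in R98S clones. The R98S clones were nearly alike and below all WT clones, of which clone 36 was again far above the rest (log2 fold change -0.53, SE 0.20, limma adjusted p = 0.114). The decrease passed the threshold without WT clone 29 (-0.72, limma adjusted p = 0.0624), after removing the shift of the nearest genes (-0.64, limma adjusted p = 0.0276) and in DESeq2 (-0.57, adjusted p = 0.0375).

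Tk1, the thymidine kinase of dividing cells, read 1622, 1547 and 2287 in WT and 1369, 2161 and 1617 in R98S clones, with broad overlap (log2 fold change -0.088, SE 0.20, limma adjusted p = 0.801). Samhd1, which degrades deoxynucleotides, read 2391, 2266 and 2379.8 in WT and 1957, 2773 and 1973 in R98S clones, where clone 13 was the highest of all 6 (log2 fold change -0.089, SE 0.15, limma adjusted p = 0.716). The remaining members were Dtymk, the thymidylate kinase (0.26, limma adjusted p = 0.2305), Dck, the deoxycytidine kinase (-0.35, 0.254), Dctd, the dCMP deaminase (0.19, 0.415), and Dut, which removes dUTP (-0.18, 0.337). For these the number in front is the log2 fold change. With the regional shift removed, Dctd passed (0.61, limma adjusted p = 0.0704).

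WT clone 36 was the highest WT clone in 7 of the 8 deoxynucleotide genes, whereas it was the highest in 36.4% of all genes tested. It was also the highest WT clone in 20 of 20 genes of a list of S-phase and proliferation genes, such as the replicative helicase subunits. The summed level of that list was between 118646 and 169289 normalized counts in WT clones and between 139423 and 146196 in R98S clones. Mki67 and Top2a gave the largest parts of this sum. Mki67 read 26526 to 44623 in WT and 29696 to 34621 in R98S clones, and Top2a 23091 to 44033 and 25432 to 31209. Relative to the mean of the 6 clones, the median deviation of the deoxynucleotide genes was -0.10, -0.10 and 0.19 in WT and -0.22, 0.02 and -0.04 in R98S clones, on the log2 scale. The S-phase list gave -0.19, -0.23 and 0.11 in WT and 0.10, 0.03 and 0.10 in R98S clones. The pyrimidine synthesis genes gave -0.18, -0.32 and -0.23 in WT and 0.32, 0.11 and 0.21 in R98S clones. Of the 20 S-phase and proliferation genes 5 were called higher and none lower (Mcm6, Ccna2, Mcm3, Gins1 and Ccne2), with a median log2 fold change of 0.18. These 5 make 25.0% of the list, where 23.9% of all genes were called, 10.7% higher and 13.1% lower. The log2 fold change was positive in 14 of the 20 and negative in 6. R98S clones lay above all WT clones in 5 genes and below them in 2, Cdk1 (-0.30) and Ccnb1 (-0.21). Over all genes 37.3% had no overlap. All 5 calls were lost without WT clone 28, WT clone 29 or R98S clone 11. In these runs the calls over all genes fell from 2755 to 1327, 1464 and 1578. The part of cell-cycle state in the nucleotide gene values was not tested.

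**Figure D4:**
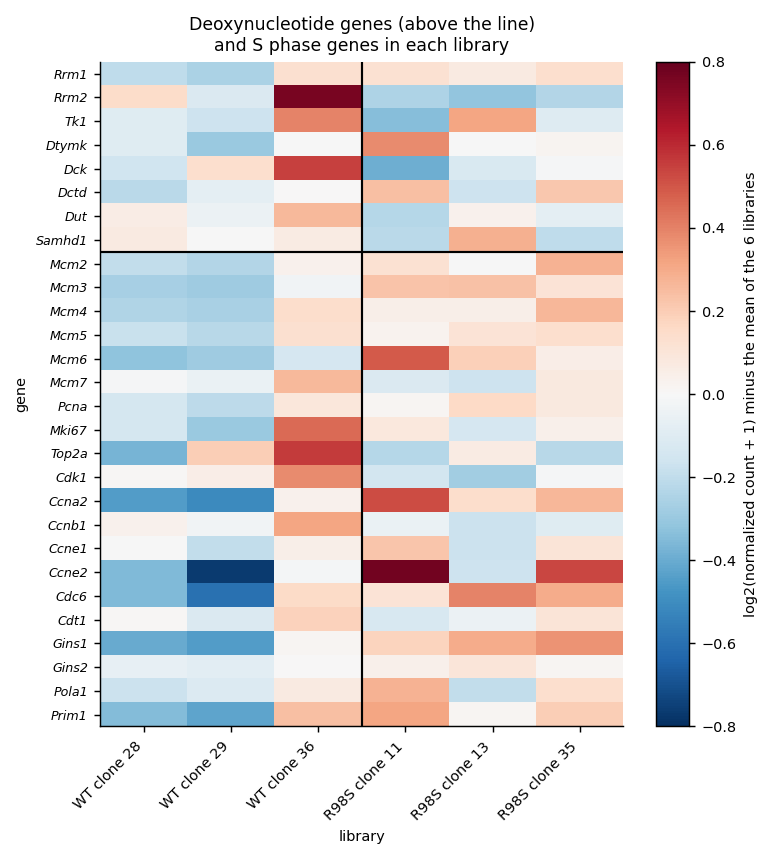
Rows are the 8 deoxynucleotide genes (above the line) and 20 S-phase and proliferation genes, and columns are the 6 libraries. The colour is log2(normalized count + 1) minus the mean of the 6 libraries. WT clone 36 is above WT clones 28 and 29 in 7 of the 8 and in 20 of the 20 genes.

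The neighbouring parts of nucleotide metabolism were read from a list of 62 further genes, of which 46 were tested. Of these 8 were called higher and 7 lower (32.6% called, where 23.9% of all genes were), with a median log2 fold change of 0.08. In the remaining synthesis and salvage genes, 5 of 24 were higher and 3 lower, where 10.7% and 13.1% of all genes were. The clearest was Cda, the cytidine deaminase, at 248, 189 and 239 in WT and 54.4, 52.1 and 32.4 in R98S clones (log2 fold change -2.29, SE 0.26, limma adjusted p = 0.00199). Mtap, which recovers adenine and methionine from methylthioadenosine and so feeds the substrate of Aprt, read 20377, 27928 and 20926 in WT and 12314, 10798 and 13085 in R98S clones (-0.92, SE 0.15, limma adjusted p = 0.00805). Mtap and Aprt thus moved in opposite directions. Prpsap2, a regulatory partner of the PRPP synthetases, was higher (482, 381 and 436 against 615, 642 and 636, log2 fold change 0.55, limma adjusted p = 0.0335), a call lost without WT clone 29 (0.125). Ak7, an adenylate kinase, had at most 2 reads in any WT library and read 36.6, 48.0 and 18.5 in R98S clones, at least 11.1-fold higher when each WT library is set at the floor of 3 reads.

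Among genes of nucleotide breakdown, 2 of 13 were higher and 2 lower, where 10.7% and 13.1% of all genes were. Gda, the guanine deaminase, fell from 4208, 4934 and 4771 to 2023, 2558 and 2185 (log2 fold change -1.04, SE 0.12, limma adjusted p = 0.00233). Adal, a deaminase related to Ada, rose from 321, 348 and 278 to 555, 554 and 582 (0.84, SE 0.14, limma adjusted p = 0.00954). The AMP deaminase Ampd3 was lower (-0.94, limma adjusted p = 0.0308) and the uridine phosphorylase Upp1 higher (0.94, limma adjusted p = 0.0942), the latter in 8 of 16 alternatives and not when any clone except R98S clone 11 was left out. In the 6 genes that clean the nucleotide pool of damaged or unwanted triphosphates, Dctpp1 had a narrow spread and a wide gap, at 904, 955 and 906 in WT and 2209, 1882 and 1891 in R98S clones (1.11, SE 0.11, limma adjusted p = 0.00109). Nudt16 and Itpa, which hydrolyse inosine nucleotides, were lower (-0.61 and -0.35, limma adjusted p = 0.0555 and 0.0811), in 11 and 9 of 16 alternatives, and both calls were lost without WT clone 28, WT clone 29, R98S clone 11 or R98S clone 35, and that of Nudt16 also without WT clone 36. None of the 3 nucleoside and base transporters tested, of 8 listed, was called by limma, where 23.9% of all genes were. In limma 0 of them had an unadjusted p under 0.05, and edgeR and DESeq2 called none.

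Of 7 transcription factors known to act on nucleotide genes, 1 was called (14.3%, under the 23.9% of all genes). E2f2 read 1273, 802 and 1533 in WT and 508, 561 and 430.2 in R98S clones, without overlap (log2 fold change -1.22, SE 0.24, limma adjusted p = 0.0148). Myc overlapped between the groups (-0.18, SE 0.14, limma adjusted p = 0.405).

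**Figure D5:**
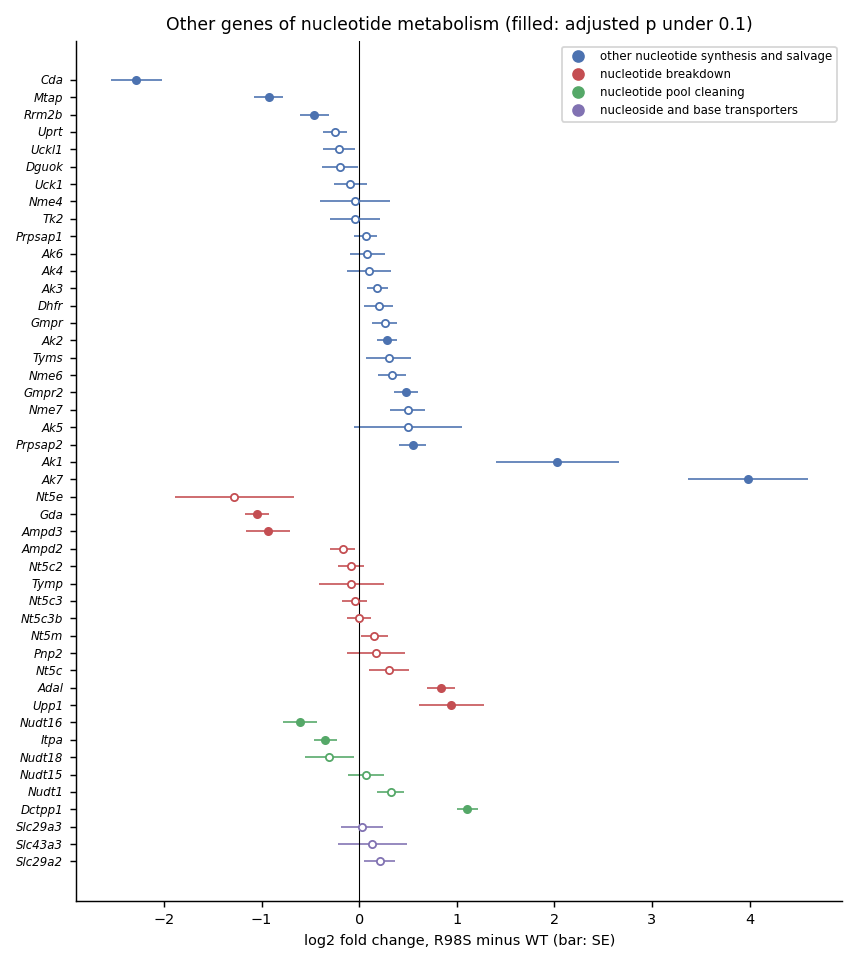
The x axis gives the log2 fold change of R98S minus WT with its SE for the 46 tested genes of nucleotide metabolism outside the 36, coloured by list, with filled symbols for an adjusted p under 0.1. Of the 46 genes 8 filled symbols lie to the right and 7 to the left of 0, with Ak7 and Cda at the extremes.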

How the data were processed

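Each library was a polyadenylated, strand-specific RNA library (TruSeq) from 1 monoclonal Ba/F3 culture. The authors removed ribosomal and transfer RNA reads with Bowtie2, aligned the rest to mm10 with TopHat, counted reads per gene (HTSeq and SAMtools are named in the submitters' processing notes) and divided by DESeq2 size factors. The deposited values are therefore a signal, namely normalized counts per gene symbol. The gene annotation and the strand setting are not given in the sources used here. Genes with close copies elsewhere can be undercounted, since reads of low mapping quality were dropped.

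All values above 0 were whole multiples of 1 step per library (100%, tolerance 1e-06), which recovered the reads. Pairs of clones of 1 group exceeded sampling noise (18.7 to 65.2 in chi-square divided by its degrees of freedom), so all 6 were kept. A floor of 3 reads equals 2.78 to 3.22 normalized counts, so depth limited only the weakest genes. Differences were tested in R 4.3.3 by limma 3.58.1 (two-sided, intensity trend) on log2(normalized count + 1), Benjamini-Hochberg adjusted over 11550 genes with a mean of at least 10 (threshold 0.1). The +1 understates changes of weak genes. The 16 alternatives per gene were pseudocounts of 0.5 and 5, no filter or a minimum mean of 50, equal totals or upper quartiles, no trend, subtracting the median shift of 30 neighbouring genes, edgeR 4.0.16 (quasi-likelihood, TMM) and DESeq2 1.42.0 on recovered reads, and leaving out each clone. Positions and exonic lengths (all annotated exons of a gene merged) came from GENCODE (GRCm38) by symbol.

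The members, gene lists and tests were chosen with earlier results of these data known. Values per clone are given for called members, for enzymes of committed or controlled steps, and for at most 4 called genes with the smallest p in each other list. No table of proteins was used here.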

Additional observations from a re-analysis of the deposited data

How the results depend on the processing

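The 13 called nucleotide genes numbered 13 with either pseudocount, a minimum mean of 50 or equal totals, 10 with no expression filter or no trend, 14 with equal upper quartiles or edgeR, 16 with DESeq2 or with the regional shift removed, and 9 at an adjusted p under 0.05. Calls over all genes numbered 2754 and 2760 with pseudocounts of 0.5 and 5, 2585 of 10050 with a minimum mean of 50 and 2777 with equal totals. They numbered 2265 of 25345 with no expression filter, 2374 with no trend, 2788 with equal upper quartiles and 2746 with edgeR. DESeq2 called 3105 of 11528 genes, and 2773 of 10999 were called with the regional shift removed. Leaving out 1 clone gave 6 nucleotide genes (without WT clone 28 or R98S clone 11) to 15 (without R98S clone 13). Over all genes it gave 1327 (without WT clone 28) to 3219 calls (without R98S clone 13), from 2755 with all clones. The 11 higher genes ranged from 6 (with any of WT clones 28 and 29 and R98S clone 11 omitted) to 13 on leaving out 1 clone. The 2 lower genes ranged from 0 (without WT clone 28, R98S clone 11 or R98S clone 35) to 2 on leaving out 1 clone, DESeq2 called 3, and 1 was left with no expression filter, with equal upper quartiles, with no trend and at an adjusted p under 0.05.

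Of 575 single-gene results under alternatives, 509 kept their sign and side of the threshold, 37 lost and 18 gained a call, and 11 changed sign. Removing the regional shift turned Cmpk1 (-0.12), Gmps (0.21), Pnp (-0.14) and Rrm1 (-0.084). On leaving out 1 clone, Paics ranged from -0.021 (R98S clone 11 omitted) to 0.078, and was also negative when WT clone 28 was omitted (-0.0067). Ctps2 ranged from -0.079 (WT clone 28 omitted) to 0.15, with -0.050 when WT clone 29 and -0.056 when R98S clone 35 was omitted. Tk1 ranged from -0.27 to 0.089 (WT clone 36 omitted), with 0.062 when R98S clone 11 was omitted. Of these, only Cmpk1 had been called. Among the genes called in all 16 alternatives, the regional shift moved Ctps most, from 0.60 to 0.28. The cause was not tested. Fewer clones leave less residual information, and the number of clones, not reads, limits precision here.

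Over all genes, equal upper quartiles gave the largest move in the share of calls that were higher, from 45.05% to 52.1%. No paired analysis was possible because the WT and R98S clones carry different numbers.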
